A study of Mus musculus with 60 samples.

Results

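Skin of untreated old mice was compared with skin of young mice by RNA-seq of whole tissue. These 7 libraries were chosen by their labels out of 60 in a series that covered 6 tissues. The untreated old group held 3 libraries from mice of 26 months, of which old 1 and old 2 were male and old 3 was female. The young group held 4 libraries from mice of 3 months, of which young 1 and young 2 were male and young 3 and young 4 were female. All mice were C57BL/6 and carried 1 copy each of 4F, a doxycycline-inducible cassette of the reprogramming factors Oct4, Sox2, Klf4 and c-Myc, and of R26::rtTA, which supplies the transactivator that doxycycline switches on. None of the 7 libraries came from a mouse given doxycycline, so the cassette was carried but not induced. A further 3 skin libraries from old mice given doxycycline at 1 mg/ml in cycles entered the model fit only to estimate the spread. The labels do not say whether the libraries came from separate animals, so p-values measure the spread between these samples. They also give no hour of collection and no part of the body from which skin was taken.

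Skin is a layered organ. The epidermis is renewed from basal keratinocytes that sit on a basement membrane and move outwards as they differentiate. Below it, dermal fibroblasts make a matrix of collagen, elastic fibres and proteoglycans, and fat and a thin sheet of striated muscle, the panniculus carnosus, lie deeper still. Hair follicles cycle through rest (telogen), growth (anagen) and regression, and during growth the hair shaft and its sheaths make very large amounts of hair keratin mRNA. Mouse dermis is also known to change with the hair cycle, and aged skin is commonly described as poorer in collagen production. In a piece of whole tissue, fewer cells of a type and less RNA per cell cannot be told apart.

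The libraries held 25043190, 24663616 and 22270564 counts in untreated old skin and 23872379, 24022295, 20959811 and 17547579 counts in young skin, and the marker genes of skin were present in all 7. Levels are given as CPM, counts divided by the TMM-scaled library size, and are not divided by transcript length, so they compare libraries and not genes. The keratin Krt14 of basal cells had 1558, 1328 and 1543 CPM in untreated old skin, against 436, 1818, 316 and 969 CPM in young skin, and the groups overlapped.

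Several libraries stood apart in what they held. Young 2 carried the keratins of growing hair. The inner root sheath keratin Krt71 had 0.145, 0.568 and 0.0797 CPM in untreated old skin, against 0, 2536, 0 and 0.157 CPM in young skin. The same keratin was also high in 1 library of doxycycline-treated old skin. Over the hair shaft and inner root sheath genes the mean log2 CPM was 10.9 in that library, 4.02 in another doxycycline-treated library and 8.99 in young 2, against values below 0 in the other 7 skin libraries. The untreated old libraries were all under 1 CPM, as were young 1, 3 and 4. Liver RNA marked old 3, where liver-enriched transcripts stood at a median of 12.2% of their level in liver, against 0.0274% in old 1 and 0.168% in old 2. Each share given here is relative to libraries of that tissue from the same age group, so an age change in that tissue also enters it. In young 1, 2, 3 and 4 the liver share was 0.00947%, 0.310%, 0.0103% and 0.0142%. Old 3 also had the highest share of spleen-enriched transcripts. Muscle-enriched transcripts stood at 46.5%, 56.8% and 24.8% of their level in skeletal muscle in untreated old skin, against 67.7%, 44.8%, 65.1% and 59.1% in young skin, so that old 3 had the least muscle and the groups overlapped. Kidney-enriched transcripts stood at 0.0825%, 0.146% and 0.249% of their level in kidney in untreated old skin, against 0.0198%, 0.0779%, 0.0292% and 0.0342% in young skin. The kidney shares were small, and those of untreated old skin all lay above those of young skin. Liver and kidney genes were chosen in part for a low level in these same young skin libraries. That choice favours higher shares in untreated old skin.

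**Figure D1:**
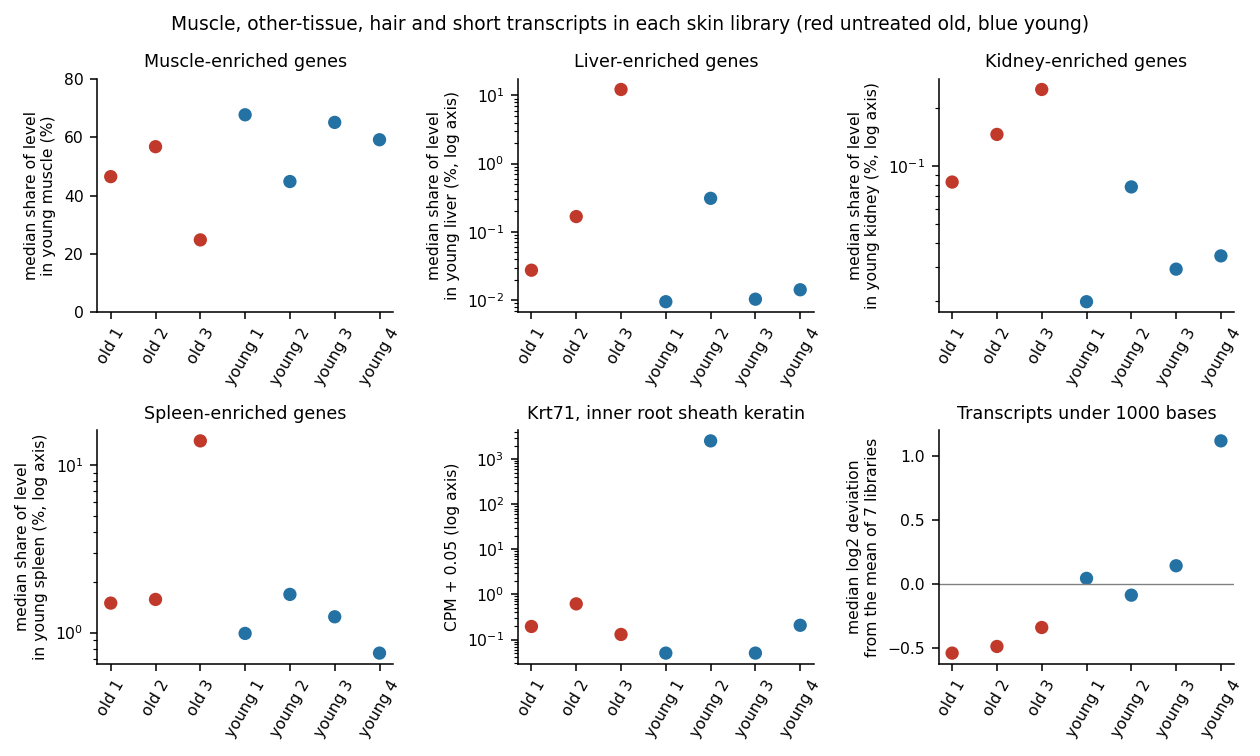
Each panel plots 1 value per skin library, with untreated old libraries left of young libraries. The panels give the shares of muscle, liver, kidney and spleen transcripts in percent, Krt71 in CPM and the deviation of short transcripts in log2 units. Each share is relative to that tissue's libraries of the same age group, although the axis labels name young tissue. Old 3 stands alone in the liver and spleen panels, and young 2 stands alone for Krt71 at 2536 CPM.

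Transcript length moved with the comparison. Among 598 genes whose longest transcript is under 1000 bases, the median deviation from the mean over libraries was -0.54, -0.48 and -0.34 log2 units in untreated old skin, against 0.05, -0.08, 0.14 and 1.12 in young skin. Young 4, the shallowest library, was the highest for short transcripts, and all 3 untreated old libraries lay below all 4 young ones. For 4497 genes with transcripts over 4000 bases the medians were 0.15, 0.15 and 0.08 in untreated old skin and 0.00, 0.01, -0.08 and -0.27 in young skin. The median age difference was -0.79 for the short genes, -0.32 for 1783 genes of 1000 to 2000 bases, -0.03 for 4502 genes of 2000 to 4000 bases and 0.21 for the long genes. Without young 4 the median of the short genes was -0.52. Short genes were therefore read against other short genes, and a fit that removes the length trend within each library is given beside the calls on genes under 1000 bases and where it ended a call. Whether RNA integrity or another property of the libraries moved with length was not tested.

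**Figure D2:**
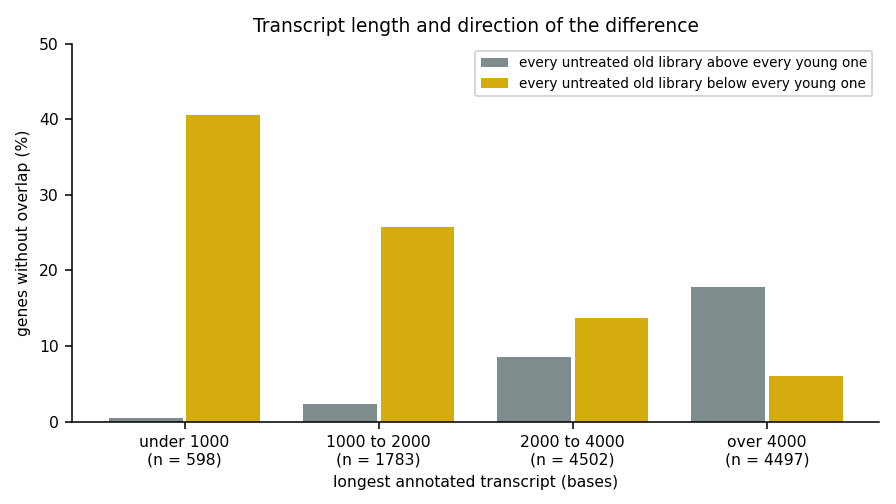
Bars give the percentage of genes in which every untreated old library lay above, or below, every young library, by length of the longest transcript. Under 1000 bases 40.6% of genes were lower in this way and 0.502% higher. Over 4000 bases 6.05% were lower and 17.8% higher.

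Of 19188 genes tested with edgeR's quasi-likelihood test, 0 passed a Benjamini-Hochberg adjusted p of 0.05 (0% of those tested), and the smallest adjusted p was 0.0764. At an unadjusted p under 0.05 there were 3064 genes, 1616 of them higher (8.42% of those tested) and 1448 lower (7.55%) in untreated old skin. DESeq2 on the same counts called 431 genes higher (2.25%) and 611 lower (3.18%). In 2022 genes (10.5%) every untreated old library was above every young library, and in 2060 genes (10.7%) every one was below. Such genes are said here not to overlap, and counts of them in the lists below are to be read against these shares. When young 2 and the doxycycline-treated library with hair keratins were left out, edgeR called 889 genes higher (4.78% of 18613 tested) and 947 lower (5.09%). With the length correction added to that fit it called 765 higher (4.11%) and 497 lower (2.67%), and 1041 of these were among the 1836 called without it. The other doxycycline-treated library with hair keratins stayed in that fit. When it was left out too, edgeR called 810 genes higher (4.09% of 19801 tested) and 530 lower (2.68%), 1059 of them among the 1836. Of the genes described below with a call, Pkp4, Irgm2, Acer2, Itga3, Cd34, Col23a1, Loxl3, Dcn, Srebf2, Myl1, Chrne, Slc34a1, Phlda3, Per3, Cox6c, Hk1 and Pfkp were then not called, at adjusted p-values between 0.0503 for Chrne and 0.0641 for Col23a1. When old 3 was left out together with the first 2, edgeR called 0 genes, and so none of the 24 named first below, with 3474 at an unadjusted p under 0.05 and a smallest adjusted p of 0.0554. Below, "called" refers to the fit without young 2 and the doxycycline-treated library highest in hair keratins, the 2 growing-hair libraries, which was chosen after the values were seen. Counts of calls in the lists are to be read against the 4.78% higher and 5.09% lower of that smaller fit. The log2 differences come from the fit with all libraries unless that smaller fit is named, and are given ± SE. A difference given directly after "called at", "called higher at" or "called lower at" also comes from the smaller fit. Adjusted p-values are edgeR's and come from the smaller fit unless given as "with all libraries". The median difference over all tested genes was 0.07 with TMM scaling and 0.35 with scaling by library total, a shift of 0.28.

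Outside the muscle, liver, kidney and hair classes, the 12 higher and 12 lower genes of smallest p were described one by one. Of the 12 higher in untreated old skin, 5 are known to be induced by interferon (Igtp, Irgm2, Gbp2, Rsad2 and Ubd). Of the 12 lower, 3 were in the elastic fibre list (Mfap5, Efemp2 and Mfap2). All 24 were called, all 24 were also called by DESeq2, and all 24 kept their sign in each of 28 alternative fits. With the length correction 21 of the 24 were still called, and the other 3 were Pkp4, Mfap2 and Emp3. These genes were picked for not overlapping and for their p, so these counts describe the selection.

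Slc26a7, an anion exchanger of the SLC26 family (chromosome 4, 14502430 to 14621805, GRCm38), had 13.5, 25.2 and 17.1 CPM in untreated old skin, against 0.381, 0.867, 0.208 and 0.314 CPM in young skin. Every untreated old library was above every young one by a wide margin. The difference was 5.34 ± 0.69 log2 units (SE, edgeR adjusted p = 0.167 with all libraries), and 5.88 ± 0.46 without the growing-hair libraries (adjusted p = 0.0127). The mouse ceramidase gene Acer2 had 66.8, 87.9 and 32.8 CPM in untreated old skin, against 12.8, 16.8, 18.6 and 16.9 CPM in young skin, a difference of 1.87 ± 0.35 (adjusted p = 0.203 with all libraries). Inf2, which encodes a formin that acts on actin, had 73.9, 81.9 and 59.4 CPM in untreated old skin, against 23.9, 40.2, 21.4 and 19.1 CPM in young skin, and was called at 1.54 ± 0.16 (adjusted p = 0.0166). In both genes old 3 was the lowest untreated old library and lay above every young one.

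Galnt18, of the family that starts mucin-type glycosylation, had 31.6, 35.8 and 18 CPM in untreated old skin, against 9.85, 14.1, 7.49 and 9.34 CPM in young skin. The adhesion receptor gene Adgrg6, known in mouse for its need in Schwann cell myelination, had 57.7, 52.3 and 52.1 CPM in untreated old skin, against 17.8, 29.6, 15.3 and 17.6 CPM in young skin. Its untreated old libraries were almost equal, and the groups did not overlap. Pkp4, which encodes a plakophilin-related protein of cell junctions, had 107, 155 and 78.9 CPM in untreated old skin, against 42.7, 54.4, 37.1 and 47.9 CPM in young skin, and Arhgap25, a GTPase-activating protein of blood cells, had 16.8, 16.5 and 24.5 CPM in untreated old skin, against 5.09, 7.80, 6.61 and 8.0 CPM in young skin. The remaining 5 were Igtp, Irgm2, Gbp2, Rsad2 and Ubd, described with the interferon genes.

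Among the lower genes, Ddah2, which encodes a dimethylarginine hydrolase-family protein, had the smallest p of any gene. It had 16.9, 16.7 and 18.6 CPM in untreated old skin, against 49, 43.4, 58.1 and 61.7 CPM in young skin. The 3 untreated old values lay within 2 CPM of each other and all 4 young values were above them, with a difference of -1.55 ± 0.15 log2 units (edgeR adjusted p = 0.0764 with all libraries). Its longest transcript is 1342 bases, and with the length correction the difference without growing-hair libraries was -1.22 ± 0.16 (adjusted p = 0.0216), against -1.68 ± 0.14 uncorrected. Mfap5, a microfibril-associated glycoprotein of connective tissue, had 17.3, 13.9 and 58 CPM in untreated old skin, against 125, 95.2, 163 and 174 CPM in young skin. Efemp2, the fibulin-4 gene needed for elastic fibre assembly, had 12, 12.2 and 21 CPM in untreated old skin, against 46.4, 36.1, 41.4 and 57.8 CPM in young skin. Old 3 was the highest untreated old library in both and still lay below the young range.

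Islr, a leucine-rich repeat gene expressed by mesenchymal cells, had 19.4, 19.6 and 37.4 CPM in untreated old skin, against 94.3, 61.2, 109 and 88.3 CPM in young skin, and Olfml2b, an olfactomedin-family matrix gene, had 13, 10.6 and 19.4 CPM in untreated old skin, against 60.1, 46, 57.7 and 38.2 CPM in young skin. The differences were -1.74 ± 0.23 (adjusted p = 0.167 with all libraries) and -1.81 ± 0.29 (adjusted p = 0.194 with all libraries). The imprinted gene Ndn, which encodes necdin, had 18, 14.8 and 24.8 CPM in untreated old skin, against 56.6, 34.7, 56.6 and 60.3 CPM in young skin. Anxa3, a calcium-dependent membrane-binding annexin, had 35.6, 43.5 and 75.4 CPM in untreated old skin, against 167, 103, 195 and 179.6 CPM in young skin. In Islr, Ndn and Anxa3 young 2 was the lowest young library, and no group overlapped the other. Tmeff2, a transmembrane protein with follistatin-like domains, had 4.45, 4.30 and 11.55 CPM in untreated old skin, against 33.3, 15.9, 45.8 and 43.5 CPM in young skin, and Cd209g, a C-type lectin gene of the DC-SIGN family, had 2.24, 1.30 and 8.01 CPM in untreated old skin, against 19.8, 14.9, 48.3 and 29.4 CPM in young skin. AW551984, a gene with no role given here, had 1.56, 2.31 and 7.61 CPM in untreated old skin, against 16.8, 10.6, 36.1 and 27 CPM in young skin. The short gene Emp3 had a longest transcript of 784 bases, and its difference was -1.32 ± 0.21 without the growing-hair libraries and -0.64 ± 0.23 with the length correction (adjusted p = 0.119). Mfap2, of 1073 bases, moved likewise to -0.88 ± 0.33 (adjusted p = 0.125).

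**Figure D3:**
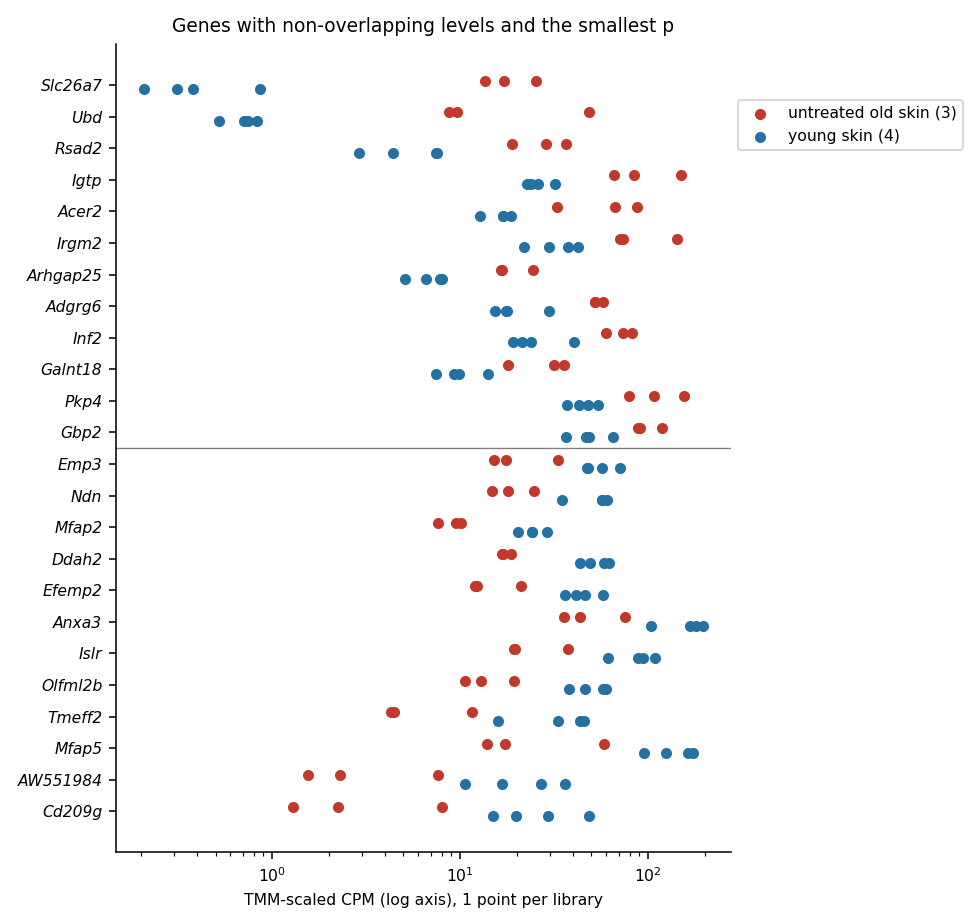
The 12 genes higher and the 12 genes lower in untreated old skin are plotted with 1 point per library, CPM on a log axis, untreated old above young in each row. In all 24 rows the untreated old points lie on 1 side of the young points, widest for Slc26a7.

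In the epidermis, basal keratinocyte genes were higher in untreated old skin as a group, while genes of the outer layers were less clearly so. Of 12 basal genes 9 were higher without overlap and 0 lower, against 10.5% higher over all tested genes, and the median difference was 1.38. Col17a1, Itgb4, Itga3, Trp63, Dst and Lama3, or 6 of the 12, were called higher, and 3 were with the length correction. The median was 1.42 without old 3. Their summed level was 13983, 9549.6 and 9303 CPM in untreated old skin, against 2619, 8157, 1879 and 4879 CPM in young skin, with young 2 close to the old range and young 1 and 3 far below it.

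Lama3, the alpha chain of laminin-332 in the epidermal basement membrane, had 82.3, 61.6 and 56.2 CPM in untreated old skin, against 10.9, 44.1, 11 and 8.63 CPM in young skin. Young 2 was far above the other young libraries but still below the untreated old ones. The difference was 1.85 ± 0.51 (adjusted p = 0.236 with all libraries), and 2.58 ± 0.21 without the growing-hair libraries (adjusted p = 0.0127). Itgb4, the integrin beta-4 chain of hemidesmosomes, had 248, 189 and 109 CPM in untreated old skin, against 53.9, 105, 39.4 and 47 CPM in young skin, and was called at 1.56 ± 0.24 (adjusted p = 0.0245). Its usual partner Itga6 had 104, 101 and 72.7 CPM in untreated old skin, against 38.4, 62.4, 28.6 and 7.06 CPM in young skin, did not overlap, and missed the threshold (adjusted p = 0.0696). Itga3, which pairs with integrin beta-1 to bind laminin, had 100.2, 65.4 and 42.9 CPM in untreated old skin, against 21.5, 37.7, 18 and 27.5 CPM in young skin and was called (adjusted p = 0.0462, or 0.0847 with the length correction).

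Of 12 suprabasal genes 0 were separated between groups, Krt10, Dsg1a and Dsc1 were called higher, and the median was 0.19, against 0.07 over all tested genes. Krt10, the main suprabasal keratin, had 2189, 1899.5 and 3132 CPM in untreated old skin, against 502, 2988, 420.3 and 933 CPM in young skin. Young 2 reached the level of old 3 while young 1, 3 and 4 were below all untreated old libraries, so the groups overlapped. The difference was 1.02 ± 0.72 (adjusted p = 0.488 with all libraries), and Krt10 was called without the growing-hair libraries at 2.04 ± 0.37 (adjusted p = 0.0312). The cornified envelope list had 0 of 17 tested genes without overlap and a median of 0.09, and the barrier lipid list had 0 of 16 and a median of 0.29. Without old 3 the medians of the suprabasal, cornified envelope and barrier lipid lists were -0.02, -0.22 and -0.14. Cyp4f39, a fatty acid hydroxylase for barrier ceramides, had 12.2, 15.2 and 16.4 CPM in untreated old skin, against 2.76, 18.4, 4.32 and 5.02 CPM in young skin and was called (adjusted p = 0.0178), with young 2 above all untreated old libraries. The 11 stress keratin and alarmin genes had a median of 1.10, which was -0.80 without old 3. The 11 epidermal proteases and inhibitors had a median of -0.15, or 0.80 without the growing-hair libraries. In summed level, young 1 and 3 were below all untreated old libraries in each of these 6 epidermal lists, while young 2 or 4 lay within or above the untreated old range in all but the basal list. The part of the epidermal share of each sample was not tested.

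The growing hair shaft was a matter of single libraries. Of 21 hair shaft and inner root sheath genes tested, 1, Crym, was lower without overlap and 0 were called. Their summed level was 93.9, 29.6 and 48.6 CPM in untreated old skin, against 11.9, 14315, 9.73 and 29 CPM in young skin. Only young 2 held a large amount, and the other young libraries lay below all untreated old ones. The keratin-associated proteins showed the same library, at 5.72, 3.28 and 11.1 CPM in untreated old skin and 2.81, 11156, 2.24 and 27.6 CPM in young skin. In this list 0 of 55 tested genes were separated and 0 were called. DESeq2 called 35 of the 55 lower, in genes that young 2 alone of the 4 young libraries expressed at a high level. Tchh, the trichohyalin of the inner root sheath, had 2.68, 3.37 and 2.19 CPM in untreated old skin, against 1.05, 2446, 0.728 and 1.26 CPM in young skin.

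Follicle genes outside the shaft differed gene by gene. Of 16 bulge and telogen genes 2 were higher and 1 lower without overlap, near the shares of 10.5% and 10.7% over all tested genes. Lhx2, Sox9, Krt24 and Foxc1 were called higher and Cd34 lower, and the median was 0.44. Krt24, a keratin of the bulge region, had 22, 13.5 and 11.9 CPM in untreated old skin, against 0.999, 1.10, 0.676 and 1.88 CPM in young skin. All untreated old libraries were several times above all young ones, with a difference of 3.83 ± 0.71 (adjusted p = 0.203 with all libraries; without the growing-hair libraries 3.66 ± 0.44, adjusted p = 0.0178). Cd34, which marks mouse bulge stem cells and also fibroblasts and vessels, differed the other way, with 144, 142 and 285 CPM in untreated old skin, against 648, 424, 548 and 387 CPM in young skin, and was called lower (adjusted p = 0.0464, or 0.054 with the length correction). Of 14 dermal papilla genes 2 were higher and 1 lower without overlap, again near the shares over all tested genes. Crabp1, Wif1, Sostdc1 and Prlr were called higher. The prolactin receptor gene Prlr had 26.4, 18.1 and 29.1 CPM in untreated old skin, against 5.19, 11.3, 5.20 and 4.16 CPM in young skin, and was called at 2.32 ± 0.26 (adjusted p = 0.0169). Prlr is also in the liver-enriched class, at 332 CPM in liver of young mice and at least 50 times its level in young skin. Its highest value, 29.1 CPM, was in the untreated old library with liver RNA, and the part of that RNA was not tested. The other untreated old libraries also lay above every young one. Fgf7, a growth factor from dermal cells to keratinocytes, had 6.59, 9.61 and 9.0 CPM in untreated old skin, against 24.4, 12.8, 17.2 and 12.9 CPM in young skin and was not called (adjusted p = 0.0998).

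Of 15 sebaceous gland genes 1 was higher without overlap, and 7 (Scd3, Elovl3, Soat1, Cidea, Krt79, Defb6 and Far2) were called higher and 0 lower. The median was 0.74. With the length correction 5 were called. Acsbg1, a long-chain acyl-CoA synthetase, had 268, 266 and 219 CPM in untreated old skin, against 49.2, 197, 43.5 and 147 CPM in young skin, did not overlap and missed the threshold (adjusted p = 0.0696). Soat1, which esterifies cholesterol in sebocytes, had 53.4, 37.5 and 46.2 CPM in untreated old skin, against 19.5, 45, 17.9 and 16.4 CPM in young skin. Young 2 lay inside the untreated old range and the other 3 young libraries lay below it, and the gene was called (adjusted p = 0.0258). Of 12 melanocyte genes 0 were separated, and Tyrp1 and Dct were called higher. Dct, an enzyme of melanin synthesis, had 14.8, 7.66 and 8.12 CPM in untreated old skin, against 1.19, 11.8, 1.51 and 0.628 CPM in young skin and was called (adjusted p = 0.036). Tyr, the tyrosinase gene of growing pigmented hair, had 0.615, 0.122 and 0.199 CPM in untreated old skin, against 0, 1.97, 0 and 0 CPM in young skin.

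Wnt pathway genes went both ways. Of 19 tested, 4 were higher (Axin2, Dkk3, Wnt16 and Apcdd1) and 2 lower (Sfrp4 and Wnt11) without overlap, against 10.5% higher and 10.7% lower over all tested genes, so the lower count was at that share. Called higher were 7, namely Axin2, Lef1, Tcf7, Dkk3, Wif1, Wnt16 and Notum, and called lower were Sfrp4 and Wnt11. With the length correction the list had 7 and 2 calls as well. The median was 0.40, and -0.04 without old 3. Axin2, a common transcriptional target of Wnt and beta-catenin, had 53.1, 36.7 and 34.9 CPM in untreated old skin, against 16.2, 30.03, 15.2 and 15.6 CPM in young skin. Young 2 was the highest young library and stayed below the untreated old range, with a difference of 1.06 ± 0.25 (adjusted p = 0.22 with all libraries; called at adjusted p = 0.0245). Wnt16, a ligand, had 8.91, 7.62 and 6.69 CPM in untreated old skin, against 1.24, 3.03, 2.18 and 1.02 CPM in young skin, and Dkk3, a Dickkopf-family secreted protein, had 31.5, 38.6 and 25.5 CPM in untreated old skin, against 6.62, 17.1, 10.8 and 8.47 CPM in young skin. Sfrp4, a secreted frizzled-related protein that binds Wnt ligands, was lower with 12.2, 16.4 and 51.7 CPM in untreated old skin, against 178, 67.7, 227 and 130.3 CPM in young skin. Its difference was -2.56 ± 0.53 (adjusted p = 0.204 with all libraries) and it was called (adjusted p = 0.0273).

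In the dermis, several genes that process and cross-link collagen were lower in untreated old skin, while the fibrillar collagens themselves varied too much among libraries to separate the groups. Of 22 collagen processing and crosslinking genes 8 were lower without overlap and 0 higher, against 10.7% lower over all tested genes. Of the list 5 were called lower (P4ha3, Loxl1, Loxl3, Pcolce and Pcolce2), or 6 with the length correction, and the median was -0.71, or -0.99 without old 3. Loxl1, a lysyl oxidase that cross-links elastin, had 22.5, 15.5 and 52.8 CPM in untreated old skin, against 169, 85.7, 130.0 and 100.4 CPM in young skin. Old 3 was the highest untreated old library and still below young 2, the lowest young one, and the difference was -2.08 ± 0.43 (adjusted p = 0.203 with all libraries; called at adjusted p = 0.0391). Pcolce2 and Pcolce enhance the cleavage of procollagen. Pcolce2 had 24.3, 27 and 82.8 CPM in untreated old skin, against 206, 116, 164 and 155 CPM in young skin, and Pcolce had 59.2, 62.6 and 89.1 CPM in untreated old skin, against 228, 110.3, 145 and 179 CPM in young skin. Both were called lower, at adjusted p = 0.0381 and 0.0344. Loxl3, another lysyl oxidase, had 5.65, 4.38 and 8.28 CPM in untreated old skin, against 14.5, 10.7, 13.7 and 14.2 CPM in young skin and was called lower (adjusted p = 0.0384).

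The fibrillar collagen genes had a median of -0.71 over 10 genes, with 0 separated and 0 called. Col1a1 had 386, 153 and 250.5 CPM in untreated old skin, against 1327, 583, 354 and 110.2 CPM in young skin. Young 1 was the highest and young 4 was the lowest of all 7 libraries, so the groups overlapped (adjusted p = 0.445 with all libraries). Col3a1 had 529.7, 171 and 675 CPM in untreated old skin, against 2716, 1251, 1348 and 464 CPM in young skin, with young 4 inside the untreated old range (adjusted p = 0.316 with all libraries). Col1a2 had 455, 218 and 388 CPM in untreated old skin, against 2103, 1041, 653 and 369.6 CPM in young skin, likewise with young 4 among the untreated old values (adjusted p = 0.284 with all libraries). At this number of libraries a difference in these genes was not detectable beyond the spread.

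Of 17 basement membrane and other collagens 3 were higher and 1 lower without overlap. Col4a6, a chain of epithelial basement membranes, had 54.4, 36.3 and 29.6 CPM in untreated old skin, against 7.28, 27.5, 5.10 and 10.5 CPM in young skin and was called higher (adjusted p = 0.0237). Col23a1, a transmembrane collagen, had 48.9, 44.7 and 47.3 CPM in untreated old skin, against 17.7, 38.2, 12.8 and 29.3 CPM in young skin and was called (adjusted p = 0.0436, or 0.102 with the length correction). Col6a6, a chain of microfibrillar collagen VI, was lower with 7.46, 4.82 and 7.49 CPM in untreated old skin, against 23.6, 14.9, 22.3 and 12.2 CPM in young skin and was not called (adjusted p = 0.0596), but passed with the length correction (adjusted p = 0.036).

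Elastic fibre genes split. Of 16, Ltbp2 was higher and Efemp2, Mfap2, Mfap5 and Ltbp1 were lower without overlap. Ltbp2 was called higher, and Efemp2, Mfap2, Mfap4 and Mfap5 were called lower, or Efemp2 and Mfap5 alone with the length correction. Ltbp2, of the family of latent TGF-beta binding proteins, had 18.2, 23.6 and 12.5 CPM in untreated old skin, against 3.86, 6.62, 2.86 and 2.51 CPM in young skin, a difference of 2.13 ± 0.48 (adjusted p = 0.22 with all libraries; called at adjusted p = 0.0152). Of 18 proteoglycan and hyaluronan genes 1 was higher and 2 lower without overlap, near or below the 10.5% and 10.7% over all tested genes. Cd44 was called higher and Dcn, Ogn and Aspn lower. Dcn, which encodes decorin, a small proteoglycan on collagen fibrils, had 359.5, 332 and 1003 CPM in untreated old skin, against 2411, 1260.0, 1825 and 1905 CPM in young skin. Old 3 was nearly 3 times the other untreated old libraries and below young 2, and Dcn was called lower at -1.91 ± 0.47 (adjusted p = 0.0471). Aspn, a related small proteoglycan, had 27.9, 21.5 and 27.4 CPM in untreated old skin, against 69.6, 29, 45.1 and 54 CPM in young skin (adjusted p = 0.0466, or 0.0765 with the length correction). Bgn, the biglycan gene, had 213, 371 and 283 CPM in untreated old skin, against 203, 165, 191 and 196 CPM in young skin, above the young range, and was not called (adjusted p = 0.237).

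Fibroblast markers were lower in part. Of 12, 3 were lower without overlap, against 10.7% over all tested genes, with a median of -0.75. Dpt and Prrx1 were called lower, against 5.09% over all genes, or 1 gene with the length correction, against 2.67%. The summed level of the 12 was 887, 662 and 1689.6 CPM in untreated old skin, against 3721, 1932, 3253 and 3021 CPM in young skin, and the groups did not overlap in that sum. Dpp4, which marks fibroblast progenitors in mouse skin, had 23.3, 21.1 and 97.8 CPM in untreated old skin, against 198, 141, 193 and 133 CPM in young skin, and Pi16, which marks a widespread fibroblast population, had 95.3, 79.2 and 283 CPM in untreated old skin, against 1386, 629.7, 672 and 376 CPM in young skin. Old 3 was the highest untreated old library in both, and neither was called (adjusted p = 0.056 and 0.0758). Prrx1, a transcription factor of mesenchymal cells, had 79.5, 92.9 and 71.2 CPM in untreated old skin, against 209, 101, 178 and 145 CPM in young skin and was called (adjusted p = 0.0486). The lower matrix genes thus moved with lower fibroblast markers, and the part of the fibroblast share was not tested.

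Of 14 metalloproteinases and inhibitors 4 were lower without overlap, against 10.7% over all tested genes, and 0 were called. Mmp2, a gelatinase made by fibroblasts, had 93.2, 80.2 and 153 CPM in untreated old skin, against 408, 265, 241 and 195 CPM in young skin (adjusted p = 0.063). Mmp3, stromelysin 1, had 11.51, 8.11 and 38.8 CPM in untreated old skin, against 38.8, 45.6, 40.6 and 46.5 CPM in young skin, where old 3 and young 1 were almost equal. The list's median was -0.57, and -1.33 without old 3. Of 16 growth and imprinted genes 3 were lower without overlap and Cdkn1c and Ndn were called lower. Cdkn1c, an imprinted inhibitor of cyclin-dependent kinases, had 12.1, 13.3 and 9.72 CPM in untreated old skin, against 26.7, 20.7, 29.6 and 47.5 CPM in young skin and was called (adjusted p = 0.037). H19, an imprinted noncoding RNA, had 327, 536 and 416 CPM in untreated old skin, against 803, 967, 1918 and 2375 CPM in young skin, did not overlap and was not called (adjusted p = 0.0934). H19 is also in the muscle-enriched class.

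Of 18 genes of the TGF-beta and BMP pathway 1 was higher and 2 lower without overlap, and as many were called. Over all tested genes 10.5% were higher and 10.7% lower without overlap, so the counts without overlap were near or below those shares. Grem1, which encodes a secreted BMP antagonist, had 24.2, 27.9 and 14.6 CPM in untreated old skin, against 2.05, 3.19, 0.260 and 0.706 CPM in young skin. The groups were apart, with a difference of 3.83 ± 0.93 (adjusted p = 0.227 with all libraries), and it was called higher (adjusted p = 0.0237). Smad3, which carries the TGF-beta signal into the nucleus, had 58, 55.5 and 44.9 CPM in untreated old skin, against 95.7, 69.8, 98.3 and 92.8 CPM in young skin and was called lower (adjusted p = 0.0349). Of 14 adipocyte genes 1 was higher without overlap and 0 were called. Pck1, an enzyme of glyceride and glucose synthesis, had 322, 395 and 536 CPM in untreated old skin, against 283, 72.8, 248 and 184 CPM in young skin. Pnpla2, the adipose lipase, had 509, 924 and 478 CPM in untreated old skin, against 495, 126, 456 and 470.3 CPM in young skin, with young 2 lowest of all. The summed adipocyte level was 11994, 14495 and 11596 CPM in untreated old skin, against 15861, 3217, 16430.2 and 12188 CPM in young skin, so young 2 also held the least fat RNA. Of 20 cholesterol synthesis genes 0 were separated and 3 were called higher, Srebf2 and Stard4 among them, or 1 with the length correction. Their median was 0.09, -0.20 without old 3 and -0.07 with a muscle covariate. Of 13 lipid synthesis genes 1 was lower without overlap, Me1, with 116, 101 and 129.7 CPM in untreated old skin, against 151, 135, 172 and 214 CPM in young skin.

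**Figure D4:**
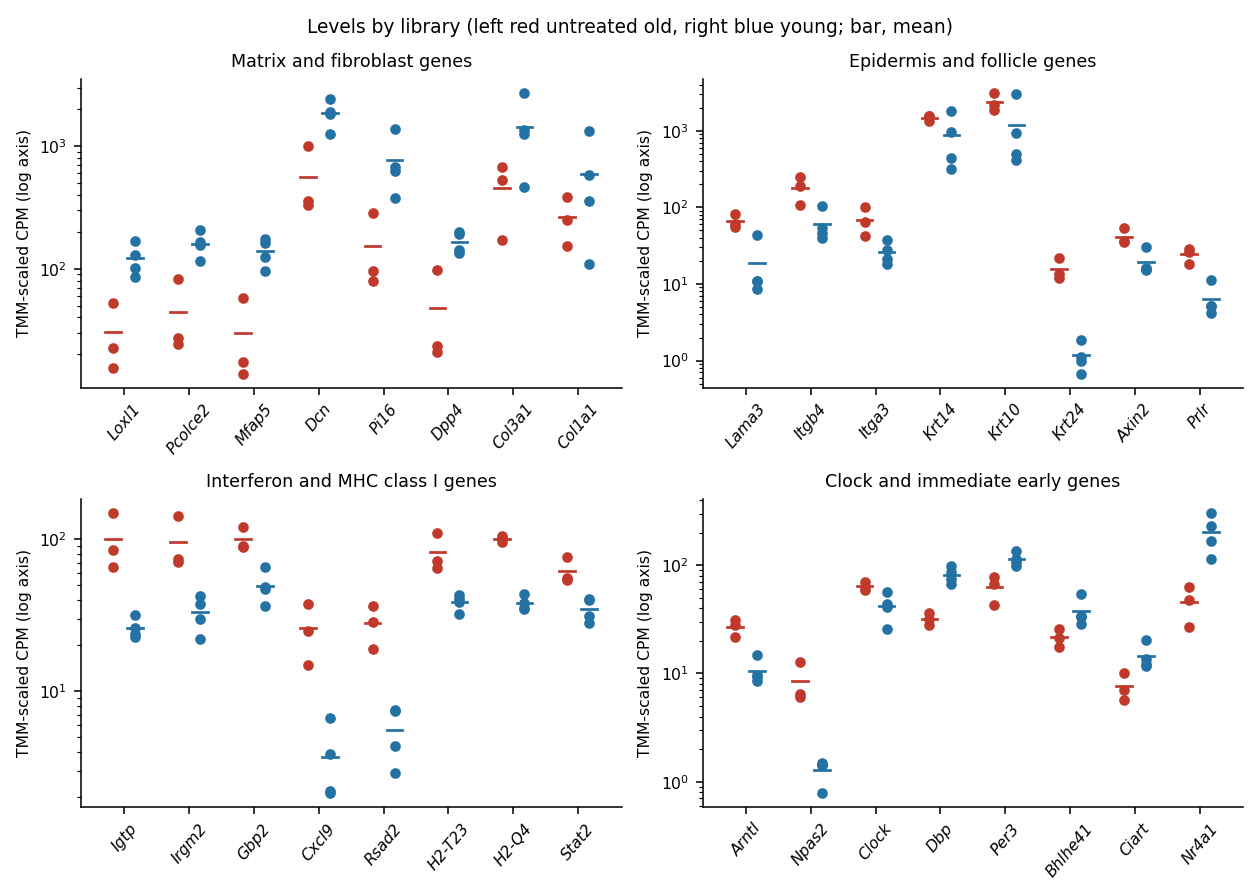
Panels plot CPM per library on a log axis for genes of epidermis and follicle, dermal matrix, interferon and MHC class I, and the clock, with untreated old points left of young points. Untreated old points lie above young points for Krt24, Lama3 and Axin2 and below them for Loxl1, Pcolce2 and Dcn.

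The muscle sheet was kept apart by a class of muscle-enriched genes, which is not of muscle alone. By its rule the class also holds the fat genes Adipoq, Plin1, Cidec, Cfd and Fabp4, and H19 and Phlda3. All of these were higher in young skin than in young muscle. Of 206 muscle-enriched genes 78 were lower without overlap and 0 higher, against 10.7% and 10.5% over all tested genes, with a median of -0.82. Called lower were 74, against 5.09% over all genes, or 45 with the length correction, against 2.67%. Without old 3, the library with least muscle RNA, the median was -0.31. Of 19 fast fibre genes 10 were lower without overlap and 5 were called lower (Tnni2, Tnnc2, Myl1, Pvalb and Casq1), or 2 with the length correction (Tnnc2 and Pvalb), with a median of -1.20 and -0.72 without old 3. Pvalb, the calcium buffer parvalbumin of fast fibres, had 1584, 1271 and 1626 CPM in untreated old skin, against 6898, 6244, 7234 and 13512 CPM in young skin. All untreated old libraries were below all young ones, with young 4 the highest, a difference of -2.36 ± 0.87 (adjusted p = 0.262 with all libraries; called at adjusted p = 0.029). Its longest transcript is 977 bases, and with the length correction the difference without growing-hair libraries was -1.92 ± 0.36 (adjusted p = 0.0364), against -2.58 ± 0.44 uncorrected. Ckm, the muscle creatine kinase gene, had 5206, 5975 and 3691 CPM in untreated old skin, against 10991, 7579, 12615 and 23685 CPM in young skin and was not called (adjusted p = 0.0914). Acta1, skeletal muscle actin, had 14465, 22357 and 7760.4 CPM in untreated old skin, against 27708, 13743, 27553 and 64577 CPM in young skin, and the groups overlapped.

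Of 10 slow fibre genes 0 were higher and 1 lower without overlap. That one was Mb, the myoglobin gene, with 1198, 1618 and 622 CPM in untreated old skin, against 4697, 2455, 3044 and 6502 CPM in young skin (adjusted p = 0.0391, or 0.0571 with the length correction). Myh7, the slow myosin heavy chain, was called higher but rested on old 3 alone, with 0.0724, 0.0405 and 14.9 CPM in untreated old skin, against 0, 0.0788, 0.468 and 0.157 CPM in young skin. Chrne, the adult subunit of the acetylcholine receptor at the junction, had 4.05, 3.97 and 1.19 CPM in untreated old skin, against 10.2, 5.56, 12.8 and 8.95 CPM in young skin and was called lower (adjusted p = 0.0377, or 0.0623 with the length correction), while Ncam1, which rises in denervated muscle, had 11.3, 13.9 and 5.10 CPM in untreated old skin, against 4.0, 6.46, 5.04 and 5.49 CPM in young skin. Of 13 genes of denervation and the junction, Chrne was the 1 without overlap and the 1 called. The thickness of the muscle sheet taken with each sample was not recorded in the labels, and its part in these differences cannot be told apart from age.

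Contractile smooth muscle genes had differences of both signs. Of 9, 5 had positive and 4 negative differences, 3 were higher without overlap and 0 were called, with a median of 0.72. DESeq2 called 3 higher. Their summed level was 3366, 6294 and 1488 CPM in untreated old skin, against 6452, 2954, 4759 and 9888 CPM in young skin, and the groups overlapped. In every library most of this sum came from list members other than Cnn1, Myh11 and Acta2. The 3 genes that follow were among those with a positive difference. Cnn1, calponin, had 13, 30.4 and 6.49 CPM in untreated old skin, against 2.62, 2.72, 1.77 and 3.30 CPM in young skin. Myh11, the smooth muscle myosin heavy chain, had 172, 369 and 57.6 CPM in untreated old skin, against 41.4, 25.1, 29.2 and 9.89 CPM in young skin, and Acta2, smooth muscle actin, had 196, 398 and 81.9 CPM in untreated old skin, against 64.5, 56.4, 65.4 and 45.3 CPM in young skin. Old 2 was the highest and old 3 the lowest of the untreated old libraries in all 3 genes. Of 10 endothelial genes 0 were separated and 0 called, with a median of 0.88. Kdr, the main VEGF receptor of vessels, had 69.9, 137 and 43.5 CPM in untreated old skin, against 43.8, 16.4, 35.8 and 18.6 CPM in young skin, again highest in old 2. Flt4, the VEGF receptor of lymphatics, had 8.15, 14.8 and 10.8 CPM in untreated old skin, against 5.04, 3.07, 5.72 and 2.82 CPM in young skin and missed the threshold (adjusted p = 0.0833).

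Of 12 Schwann cell and nerve genes 1 was higher and 1 lower without overlap. Called were 2 higher, Ngfr and Egr2, and 2 lower, Pmp22 among them, or 1 lower with the length correction. Ngfr, the low-affinity nerve growth factor receptor of Schwann cells and some follicle cells, had 22.9, 19.5 and 16.8 CPM in untreated old skin, against 5.47, 11.6, 2.44 and 3.22 CPM in young skin and was called higher (adjusted p = 0.0169). Pmp22, a protein of peripheral myelin that fibroblasts also express, had 154, 144 and 141 CPM in untreated old skin, against 387, 387, 369.5 and 277 CPM in young skin and was called lower (adjusted p = 0.0245).

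Interferon-induced genes were higher in untreated old skin in part. These genes respond to type I or type II interferon through transcription factors that bind the gamma-activated site and the interferon-stimulated response element. RefSeq promoters of GRCm38.p6, from 250 bases before to 50 after the gene's start, were matched for 6 of 7 such genes looked up. Both strands were searched for the gamma-activated site TTCNNNGAA, found in 8.3% of 32851 promoters, and for the response element, a pair of GAAA stretches 2 bases apart, found in 3.44%. Windows of 4 of the 6 genes held at least 1 of the motifs. These 4 are printed because they held a motif, with the motifs in capitals and read 5′ to 3′ on the gene's strand. The windows lie at chr11:58199306-58199605, plus strand for Igtp, chr11:58214727-58215026, plus strand for Irgm2, chr3:142620413-142620712, plus strand for Gbp2 and chr12:26456403-26456702, minus strand for Rsad2.
Igtp: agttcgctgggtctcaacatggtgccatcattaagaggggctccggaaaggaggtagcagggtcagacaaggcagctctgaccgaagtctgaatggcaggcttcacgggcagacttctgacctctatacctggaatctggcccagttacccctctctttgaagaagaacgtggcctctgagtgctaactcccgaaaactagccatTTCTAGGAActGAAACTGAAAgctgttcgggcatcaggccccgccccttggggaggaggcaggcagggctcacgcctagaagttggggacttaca
Irgm2: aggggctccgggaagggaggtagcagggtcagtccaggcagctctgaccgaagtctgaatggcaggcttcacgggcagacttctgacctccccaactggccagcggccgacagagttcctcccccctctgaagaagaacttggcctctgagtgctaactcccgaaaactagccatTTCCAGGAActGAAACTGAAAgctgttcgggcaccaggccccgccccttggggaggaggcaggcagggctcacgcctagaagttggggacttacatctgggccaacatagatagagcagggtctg
Gbp2: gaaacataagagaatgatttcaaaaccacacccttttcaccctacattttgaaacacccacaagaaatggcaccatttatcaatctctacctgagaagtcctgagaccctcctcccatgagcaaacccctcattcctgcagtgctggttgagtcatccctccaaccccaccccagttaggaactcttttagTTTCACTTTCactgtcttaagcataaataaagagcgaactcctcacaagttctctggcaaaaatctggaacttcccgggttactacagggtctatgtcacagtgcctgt
Rsad2: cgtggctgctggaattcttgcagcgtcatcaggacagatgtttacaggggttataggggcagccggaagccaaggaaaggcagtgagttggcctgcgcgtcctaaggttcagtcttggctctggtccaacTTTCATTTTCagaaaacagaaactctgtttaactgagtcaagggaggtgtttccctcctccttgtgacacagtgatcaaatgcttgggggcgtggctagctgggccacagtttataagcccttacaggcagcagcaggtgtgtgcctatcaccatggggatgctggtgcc
Igtp and Irgm2 held both motifs side by side and without overlap, and Gbp2 and Rsad2 held the response element alone. The windows of Ubd and Cxcl9 held neither string of letters. A match describes the letters only.

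Igtp and Irgm2 encode immunity-related GTPases that protect mouse cells against intracellular parasites. Igtp had 84.8, 65.9 and 149 CPM in untreated old skin, against 25.9, 23.9, 31.9 and 22.6 CPM in young skin, and Irgm2 had 73.7, 71.1 and 142 CPM in untreated old skin, against 37.6, 29.7, 42.3 and 22 CPM in young skin. Old 3 was the highest in both, and old 1 and 2 were also above every young library. The differences were 1.94 ± 0.28 (adjusted p = 0.192 with all libraries) and 1.54 ± 0.28 (adjusted p = 0.203 with all libraries), called at adjusted p = 0.0237 and 0.0433. Gbp2, a guanylate-binding protein, had 90.3, 88.9 and 119 CPM in untreated old skin, against 46.8, 36.4, 65.5 and 48.5 CPM in young skin, and Rsad2, the antiviral enzyme viperin, had 28.5, 18.9 and 36.5 CPM in untreated old skin, against 4.38, 7.57, 7.44 and 2.90 CPM in young skin. Ubd, a ubiquitin-like modifier induced by interferon-gamma and TNF, had 8.69, 48.3 and 9.64 CPM in untreated old skin, against 0.524, 0.749, 0.832 and 0.706 CPM in young skin, where old 2 was far above the other untreated old libraries and these were far above all young ones (adjusted p = 0.0345, or 0.0307 with the length correction). Cxcl9, an interferon-gamma-induced chemokine for T cells, had 15, 25 and 37.6 CPM in untreated old skin, against 3.86, 2.13, 6.66 and 2.20 CPM in young skin, a difference of 2.85 ± 0.53 (adjusted p = 0.203 with all libraries; called at adjusted p = 0.0296).

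The wider list was less uniform. Of 22 interferon-stimulated genes 7 were higher without overlap and 0 lower, against 10.5% and 10.7% over all tested genes. Only Rsad2 and Gbp2 were called, against 4.78% called higher over all genes. The median was 0.21, or -0.06 without old 3. Stat2, a signal carrier of the pathway, had 55.8, 53.4 and 76.3 CPM in untreated old skin, against 31.4, 39.6, 40.2 and 28.2 CPM in young skin and was not called (adjusted p = 0.0578). MHC class I genes, which present peptides to T cells, were higher more often. Of 13, 10 were higher without overlap, against 10.5% over all tested genes. H2-Q4, H2-T23, Tap1 and Nlrc5 were called higher, against 4.78% over all genes. There were 4 calls also with the length correction, with a median of 0.98, or 0.64 without old 3. H2-T23, a nonclassical class I gene, had 64.7, 71.8 and 110.2 CPM in untreated old skin, against 32.1, 40.4, 43 and 38.3 CPM in young skin, a difference of 1.12 ± 0.21 (adjusted p = 0.203 with all libraries; called at adjusted p = 0.0309). H2-Q4 had 101, 105 and 95.3 CPM in untreated old skin, against 34.7, 43.4, 38.1 and 35.1 CPM in young skin, and H2-Q6 had 201, 230.3 and 235 CPM in untreated old skin, against 38.8, 90.1, 41.7 and 103 CPM in young skin, but genes of the H2-Q family are near-identical and their separate values are uncertain. Psmb9, a subunit of the immunoproteasome, had 37.8, 37.1 and 73 CPM in untreated old skin, against 17.8, 27.7, 25.3 and 30.5 CPM in young skin and was not called (adjusted p = 0.0598). Of 9 MHC class II genes 0 were separated, and the median was -0.01.

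Immune cell markers depended on old 3, the library with spleen and liver RNA. The neutrophil list had a median of 2.20 with it and -0.25 without it, the B and plasma cell list 2.31 and -1.60, and the macrophage list -0.96 and -1.89. For T and NK cell genes the medians were 1.35 and 0.58. Trac, the constant region of the T cell receptor alpha chain, had 0.760, 0.689 and 5.02 CPM in untreated old skin, against 0.0476, 0.236, 0.104 and 0.0785 CPM in young skin. All untreated old libraries were above all young ones, although old 1 and 2 rested on under 1 CPM, and the gene was called (adjusted p = 0.0248, or 0.0232 with the length correction). C1qa, a complement gene of macrophages, had 25.8, 29.4 and 242 CPM in untreated old skin, against 196, 196, 338 and 270.3 CPM in young skin, with old 1 and 2 far below and old 3 within the young range (adjusted p = 0.279 with all libraries). Macrophage markers in sum stood at 325, 486 and 2264 CPM in untreated old skin, against 1669, 1469.7, 2795 and 1766 CPM in young skin. Of 12 mast cell genes 0 were separated, and of 10 Langerhans and dendritic cell genes 2 were higher without overlap, Zbtb46 and Clec9a, and 0 called. Lyz1, a lysozyme gene, was lower with 3.26, 3.08 and 19.6 CPM in untreated old skin, against 28.7, 26.9, 126 and 98.6 CPM in young skin and was called (adjusted p = 0.0207); it is near-identical to Lyz2, so its separate value is uncertain. Tnfrsf17, the plasma cell receptor BCMA, was lower with 0.181, 0.122 and 0.597 CPM in untreated old skin, against 1.09, 1.26, 3.74 and 3.85 CPM in young skin (called at adjusted p = 0.0207, or 0.0364 with the length correction).

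Of 20 chemokine and inflammatory cytokine genes 1 was higher and 2 lower without overlap, near or below the 10.5% and 10.7% over all tested genes. Called were 1 higher and 2 lower, or 4 higher and 0 lower with the length correction. Ccl11, eotaxin, an attractant for eosinophils that fibroblasts make, had 13.9, 19.9 and 43.1 CPM in untreated old skin, against 78.8, 48, 89.9 and 109 CPM in young skin. It was called lower (adjusted p = 0.03) but has a longest transcript of 1082 bases and was not called with the length correction (adjusted p = 0.0785). Of 14 complement genes 0 were separated, with a median of -0.42.

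Clock genes differed by phase. In mammals CLOCK, or its relative NPAS2, pairs with BMAL1 (Arntl) to drive Per, Dbp and related genes through E-boxes, DBP-family factors act at D-boxes, and REV-ERB and ROR factors act at ROR elements of Arntl. Genes driven by BMAL1 and Arntl itself peak at opposite times of day. Of 12 clock genes looked up, 11 were matched to a RefSeq promoter, and 8 of these had at least 1 motif in a window. The E-box CACGTG is held by 7.15% of all promoters, the D-box TTATGTAA by 0.938% and the ROR element AGGTCA by 16.3%, both strands searched. The windows of Ciart, Per3 and Arntl are printed with motifs in capitals, as 1 example for each of the 3 motifs. A window of Per1, not printed, held 1 E-box and 1 ROR element. The printed windows lie at chr3:95882179-95882478, minus strand, chr4:151044616-151044915, minus strand and chr7:113207261-113207560, plus strand.
Ciart: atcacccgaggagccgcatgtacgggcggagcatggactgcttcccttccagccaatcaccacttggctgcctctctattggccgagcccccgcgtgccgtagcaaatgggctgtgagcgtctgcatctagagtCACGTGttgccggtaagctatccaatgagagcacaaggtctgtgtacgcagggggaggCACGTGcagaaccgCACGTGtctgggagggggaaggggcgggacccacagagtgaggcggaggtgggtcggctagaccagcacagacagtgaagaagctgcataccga
Per3: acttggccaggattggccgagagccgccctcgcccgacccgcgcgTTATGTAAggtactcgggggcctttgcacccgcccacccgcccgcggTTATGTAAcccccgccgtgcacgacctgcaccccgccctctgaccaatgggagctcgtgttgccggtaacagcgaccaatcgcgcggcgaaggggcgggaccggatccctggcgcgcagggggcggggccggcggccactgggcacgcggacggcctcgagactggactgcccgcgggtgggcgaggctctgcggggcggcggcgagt
Arntl: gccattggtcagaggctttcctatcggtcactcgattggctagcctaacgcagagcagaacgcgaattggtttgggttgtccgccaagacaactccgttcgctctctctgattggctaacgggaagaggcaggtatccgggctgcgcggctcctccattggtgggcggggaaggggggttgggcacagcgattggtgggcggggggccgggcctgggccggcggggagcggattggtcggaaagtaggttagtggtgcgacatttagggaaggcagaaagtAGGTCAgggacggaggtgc
Ciart held 3 E-boxes, Per3 held 2 D-boxes and this window of Arntl held 1 ROR element, none overlapping another. The other window of Arntl, which starts further upstream, held none of the 3 strings, and neither did the windows of Dbp, Nr1d1 and Npas2.

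Of 12 genes of the PER and DBP phase 6 were lower without overlap (Per3, Nr1d2, Dbp, Tef, Bhlhe41 and Ciart) and 0 higher. Over all tested genes 10.7% were lower and 10.5% higher without overlap. Per3, Nr1d2, Dbp and Bhlhe41 were called lower, there were 4 calls with the length correction too, and the median was -0.53. Dbp had 28.1, 36 and 31.8 CPM in untreated old skin, against 99.1, 66.8, 86.6 and 74.2 CPM in young skin. The untreated old libraries lay close together and well below the young ones, with a difference of -1.38 ± 0.51 (adjusted p = 0.264 with all libraries; called at adjusted p = 0.0285). Per3 had 66.5, 78 and 43.2 CPM in untreated old skin, against 114, 107, 136 and 98.6 CPM in young skin, and Ciart, a repressor of CLOCK and BMAL1, had 6.99, 10.1 and 5.74 CPM in untreated old skin, against 11.6, 12.3, 13.7 and 20.5 CPM in young skin. Per3 was called (adjusted p = 0.0418) and Ciart was not (adjusted p = 0.101). Bhlhe41, another repressor, had 21.4, 25.7 and 17.6 CPM in untreated old skin, against 54.5, 34.1, 33.2 and 28.9 CPM in young skin and was called lower (adjusted p = 0.0296). Of 5 genes of the BMAL1 phase 3 were higher without overlap and 2 were called higher. Arntl had 31.3, 21.6 and 28.3 CPM in untreated old skin, against 8.61, 14.9, 9.78 and 9.26 CPM in young skin, and Npas2 had 12.8, 6.49 and 6.05 CPM in untreated old skin, against 1.48, 1.42, 0.780 and 1.41 CPM in young skin. The differences were 1.35 ± 0.28 (adjusted p = 0.203 with all libraries) and 2.72 ± 0.51 (adjusted p = 0.203 with all libraries), and both were called (adjusted p = 0.0235 and 0.0271). Clock had 69.7, 58.7 and 63.2 CPM in untreated old skin, against 56.5, 43.9, 40.8 and 25.8 CPM in young skin and was not called (adjusted p = 0.3). With no hour of collection in the labels, age and time of day cannot be told apart for these genes.

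Of 16 immediate early genes, which respond within minutes to stimulation or handling, 1 was higher (Klf6) and 3 lower (Nr4a1, Klf2 and Dusp1) without overlap. Egr2 and Egr3 were called higher, or 1 gene with the length correction, and Fos, Nr4a1 and Klf2 lower. Nr4a1 had 47.8, 63.4 and 26.7 CPM in untreated old skin, against 229, 115, 167 and 306 CPM in young skin and was called lower at -2.61 ± 0.35 (adjusted p = 0.0207), and Klf2 had 32.1, 33.8 and 30.7 CPM in untreated old skin, against 61.9, 53, 73.9 and 66.5 CPM in young skin (called at adjusted p = 0.0235). Of 12 glucocorticoid-responsive genes 3 were higher without overlap and 0 were called. Zbtb16 had 178, 229 and 81.6 CPM in untreated old skin, against 69, 33, 42 and 38 CPM in young skin (adjusted p = 0.0501). Fkbp5, a chaperone partner of the glucocorticoid receptor, had 142, 240.5 and 159.7 CPM in untreated old skin, against 74.4, 54.8, 24.1 and 119 CPM in young skin (adjusted p = 0.174). Of 12 heat shock genes 1 was higher (Hsp90aa1) and 2 lower (Hspa8 and Hspe1) without overlap, against 10.5% and 10.7% over all tested genes. Of the 12, 0 were called, and these genes have near-identical copies in the genome, so their counts are uncertain.

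Of 10 senescence genes tested Cdkn2a and Trp53 were higher and Mmp3 lower without overlap, and the first 2 were called higher. Cdkn2a, which encodes p16 and p19ARF and accumulates in aged mouse tissues, had 1.09, 2.27 and 1.23 CPM in untreated old skin, against 0.238, 0.631, 0.0520 and 0.0785 CPM in young skin. All untreated old libraries were above all young ones, at levels near 1 or 2 CPM, with a difference of 2.72 ± 0.64 (adjusted p = 0.22 with all libraries; called at adjusted p = 0.0418, or 0.0357 with the length correction). Of 14 p53 target genes Ccng1 was lower without overlap, Sesn2, Trp53inp1 and Psrc1 were called higher and Ccng1 and Phlda3 lower, neither of them with the length correction, and the median was 0.01. Trp53, the gene of p53 itself, had 58.6, 47.4 and 52.8 CPM in untreated old skin, against 26.8, 38.8, 28.1 and 29.3 CPM in young skin and was called higher (adjusted p = 0.0479). Phlda3, a p53-induced inhibitor of AKT, had 114, 198 and 90.9 CPM in untreated old skin, against 303, 174, 188 and 297 CPM in young skin and was called lower (adjusted p = 0.0465). Phlda3 is also in the muscle-enriched class. Eda2r, a receptor gene reported to rise with age in several tissues, had 34, 49.9 and 19.1 CPM in untreated old skin, against 50.02, 29.5, 56.8 and 52.3 CPM in young skin, and the groups overlapped (adjusted p = 0.907 with all libraries).

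Nuclear genes of oxidative phosphorylation were lower in part. Of 24, 10 were lower without overlap (41.7%), 13 were called lower (54.2%), and 6 were with the length correction (25%), against 2.67% lower over all genes in that corrected fit. The median was -0.87, or -0.55 with the length correction, against 0.10 over all tested genes with it. By length of the longest transcript, 4 of the 24 are under 1000 bases, 12 are of 1000 to 2000 bases and 8 are longer. Among the 598 genes under 1000 bases, 40.6% were lower without overlap and 26.1% were called lower, with a median of -0.79. Of the 12 list members of 1000 to 2000 bases 5 were lower without overlap and 7 were called lower, with a median of -0.90, against 25.7%, 13.7% and -0.32 among the 1783 genes of that length. The comparison with genes of like length describes these counts and was not tested. Ndufa1, a subunit of complex I with a longest transcript of 419 bases, had 40.9, 39 and 39.3 CPM in untreated old skin, against 111, 68.8, 109 and 255 CPM in young skin, and young 4 was far above the other young libraries. Its difference without growing-hair libraries was -1.93 ± 0.34, or -0.97 ± 0.15 with the length correction (adjusted p = 0.026). Cox6c, a subunit of cytochrome oxidase, had 152, 143 and 154 CPM in untreated old skin, against 359, 219, 388 and 991 CPM in young skin (adjusted p = 0.0388, or 0.0473 with the correction). Of 13 mitochondrially encoded genes 1, mt-Co2, was lower without overlap, and the median was -0.38, or 0.13 with the length correction. Of 23 ribosomal protein genes 1, Rpl5, was lower without overlap, with a median of -0.48, or -0.06 with the correction.

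Glycolysis genes went both ways. Of 14, 4 were higher (Hk1, Pfkl, Pfkp and Slc2a1) and 5 lower (Tpi1, Pgk1, Pgam2, Pkm and Ldha) without overlap. Called were 3 higher and 7 lower, or 2 and 4 with the length correction. Slc2a1, the glucose transporter of basal epidermis and many cells, had 89.1, 85.9 and 66.8 CPM in untreated old skin, against 22.8, 54.1, 21.3 and 33 CPM in young skin, and Hk1, a hexokinase, had 67.7, 64.3 and 69.9 CPM in untreated old skin, against 34.9, 43.9, 27.7 and 17.4 CPM in young skin. Both were called higher (adjusted p = 0.029 and 0.0374). Ldha, lactate dehydrogenase A, abundant in fast muscle, had 612, 640.5 and 496 CPM in untreated old skin, against 1604, 1084, 1466 and 2324 CPM in young skin and was called lower (adjusted p = 0.0308). The genes that were lower include ones shared with the muscle sheet, and its part was not tested. Of 18 cell cycle genes 0 were separated and 5 were called higher (Mki67, Top2a, Ccnb2, Cdk1 and Plk1), or 3 with the length correction. Their median was 1.53, and -0.39 without old 3. Ccnb2, cyclin B2, had 5.94, 2.92 and 15.7 CPM in untreated old skin, against 0.999, 4.69, 0.832 and 0.706 CPM in young skin, highest in old 3.

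**Figure D5:**
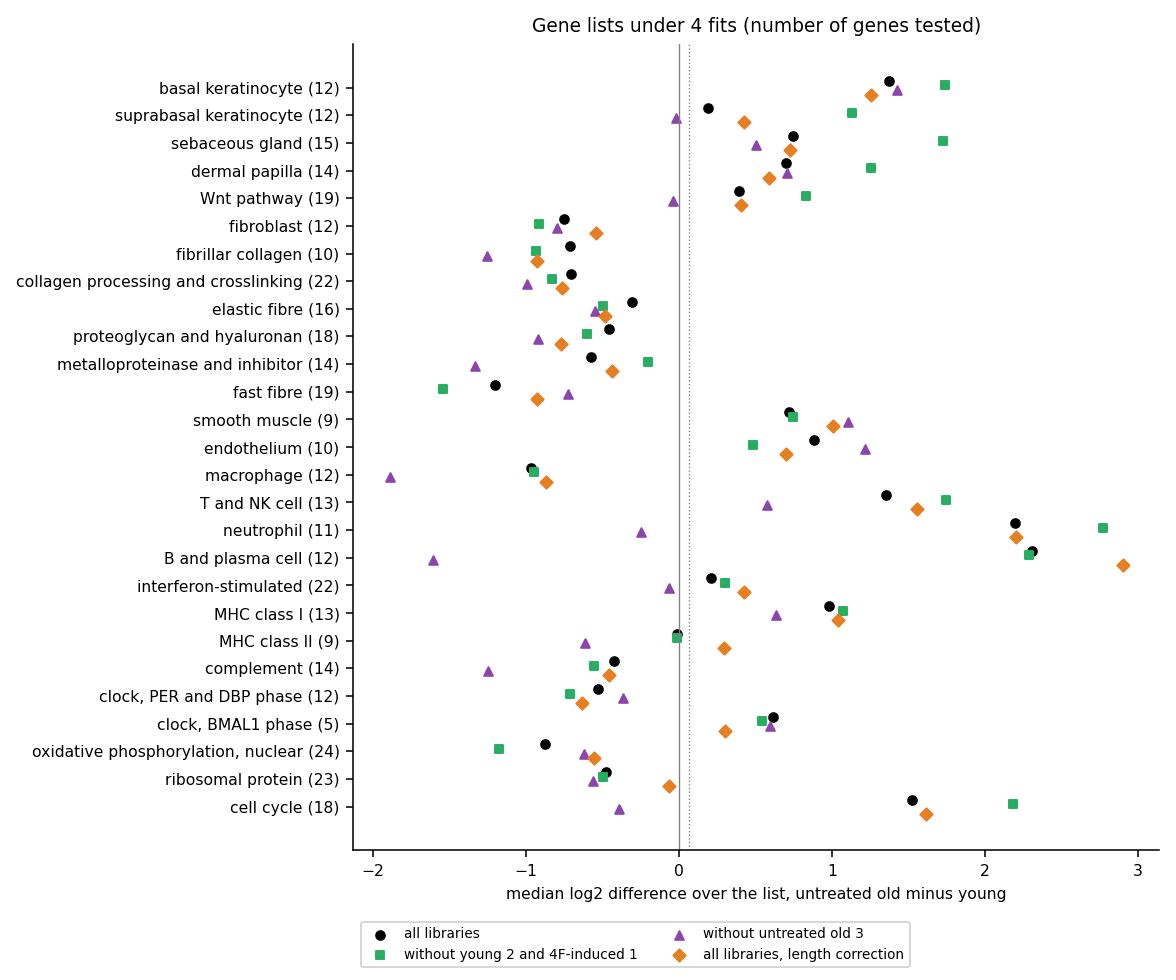
The median log2 age difference of each of 27 gene lists, untreated old minus young, is plotted in the fit with all libraries and in 3 alternative fits. Basal keratinocyte genes stay above 0 and collagen processing genes below 0 in each, at 1.38 and -0.71 with all libraries.

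Liver and kidney transcripts were also kept apart. Liver-enriched genes, 281 tested, had a median of 3.30, with 15 higher without overlap, and the median was -0.65 without old 3. The class was chosen in part for a low level in young skin, which favours a positive difference. Alb, serum albumin, had 9.56, 50.7 and 6278 CPM in untreated old skin, against 12.3, 231, 20.5 and 22.1 CPM in young skin, so that old 3 alone was very high and young 2 was next. Of 15 kidney tubule genes 12 passed the filter on low counts. Of these 12, 6 were higher without overlap and 5 were called higher, against 10.5% and 4.78% over all tested genes. Genes near 0 in young skin, such as Slc34a1 and Umod, could pass that filter only through old libraries. The filter thus favoured a higher level in untreated old skin, and these counts are a description only. Kap, the androgen-regulated protein of kidney tubules, had 0.507, 8.39 and 24.2 CPM in untreated old skin, against 0, 0.0394, 0 and 0.471 CPM in young skin. Slc34a1, a phosphate transporter of the proximal tubule, had 0.362, 3.97 and 4.42 CPM in untreated old skin, against 0.0952, 0.0394, 0 and 0.0785 CPM in young skin, with 1 of the young libraries at 0. Umod, uromodulin of the thick ascending limb, had 0.217, 3.41 and 2.87 CPM in untreated old skin, against 0.0952, 0, 0 and 0.0785 CPM in young skin, with young 2 and 3 at 0. These genes were low in old 1 and highest in old 2 or old 3, as the kidney shares of the libraries were.

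Single genes were also compared with the age difference in the other 5 tissues, in 1 model over all 60 libraries. That model called 5066 of 23221 genes (21.8%) for skin minus the mean of the other 5 tissues and 4135 (17.8%) for skin minus skeletal muscle. Its spread is shared by all tissues and smaller than that of skin alone: it called 4375 genes for the age difference within skin, where skin's own fit called 0. Its p-values are therefore smaller than the spread of skin would give. Libraries of different tissues may also share an animal, and the model holds no term for animal. Of the 24 genes above, 14 differed from the other tissues in this model. These 24 were picked by the same skin values, which favours a departure, so the count describes the selection. Slc26a7 differed by 6.05 ± 0.78 log2 units (edgeR adjusted p = 1.38e-06), Ddah2 by -1.35 ± 0.30 (adjusted p = 0.000876) and Anxa3 by -2.45 ± 0.38 (adjusted p = 1.16e-05). Igtp, Gbp2, Irgm2, Rsad2 and Ubd did not pass (adjusted p = 0.846, 0.213, 1, 0.678 and 0.762). For Igtp the mean age difference of the other 5 tissues was 2.33 ± 0.32 (adjusted p = 8.58e-07), against 1.94 ± 0.28 in skin. Of the clock genes, Dbp, Per3, Npas2 and Arntl did not pass either (adjusted p = 0.461, 0.157, 0.573 and 0.224). Loxl1 did, at -2.13 ± 0.44 (adjusted p = 0.000371), as did Axin2 at 1.85 ± 0.38 (adjusted p = 0.000331).

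Of the 4 genes of the uninduced cassette 3 were tested and 0 were separated between the groups. Klf4 had 181, 153 and 179 CPM in untreated old skin, against 123, 214, 90.5 and 102 CPM in young skin, and Myc had 38, 28.3 and 35.6 CPM in untreated old skin, against 13.8, 34, 17.6 and 20.2 CPM in young skin and was called (adjusted p = 0.0442). Sox2 had 0.471, 0.892 and 0.159 CPM in untreated old skin, against 0.286, 0.0394, 0 and 0 CPM in young skin, and Pou5f1 had 0, 0.0405 and 0.0398 CPM in untreated old skin, against 0.143, 0, 0 and 0 CPM in young skin, which was too low to test. At these depths a count of 0 allows up to 0.135 CPM in untreated old libraries and up to 0.171 CPM in young ones, 3 counts of the total, for counting error only. The counts do not separate cassette transcripts from those of the mouse's own genes.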

How the data were processed

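Total RNA was extracted with a Qiagen RNeasy kit and made into stranded total RNA libraries, per the labels' protocols. The deposited values are whole-number counts per gene that the authors made from their reads. GRCm38 is named as the build in the submitters' processing notes, and for the aligner, counter and filters the entry is: not given in the sources used here. The 60 single files were identical to the table of the whole series. Of 52636 gene IDs 52403 had a symbol, and IDs without one held 0.0231% of counts and were kept under their gene ID. Skin libraries held 17547579 to 27444541 counts, and all intervals and limits cover counting error only.

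Counts of the 10 skin libraries (3 untreated old, 4 young and 3 doxycycline-treated old) were fitted with edgeR 4.0.16 in R 4.3.3 (filterByExpr, TMM, glmQLFit and glmQLFTest, sex as covariate, two-sided, Benjamini-Hochberg over all tested genes). The biological coefficient of variation was 49.7%. Alternatives used limma 3.58.1, DESeq2 1.42.0, other filters and scalings, muscle and hair covariates and fits without single libraries. The length correction, added after seeing the values, subtracted in each library a lowess curve (span 0.3) of log2 deviations on the length of the longest annotated transcript. Fits without the growing-hair libraries, a further library with some hair keratins or old 3, and the spleen class, were also added then. Liver and kidney classes held genes at 100 CPM or more in that tissue of young mice and at least 50 times their level in young skin. The same rule for muscle, at 10 times, left only Actc1 and Fmod, because skin samples held muscle, so muscle genes were redefined against kidney, liver and spleen. Only the main edgeR fit was run on simulated counts, at the dispersion of the data and at a lower one. Recovery of the set differences was required only at the lower one. The other fits, among them the one behind the calls, were not run on simulated counts.

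The groups and the 62 gene lists, of 926 entries, were chosen with earlier results of these data known. Genes described with values were the 12 higher and 12 lower of smallest p outside those classes with no overlap and an average log2 CPM of at least 1, up to 4 members of each list by p, a few genes fixed by name, and the most abundant genes of each class. Other list members were named after their values were seen. Motifs were searched in RefSeq promoters of GRCm38.p6. A few members of the lists are not reported here by name.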

Additional observations from a re-analysis of the deposited data

Results flagged for a closer look

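Of 198 named genes tested for a young library that stood apart from the other 3 by Dixon's criterion, 20 did, where chance gives about 1 in 20. In most of them the library was young 2, which carried growing hair. It was the highest young library for Krt71 (2536 CPM), Tchh (2446), Krtap7-1 (1700), Krt72 (933), Krt33b (505), Gprc5d (389), Krtap4-16 (129.7) and Tyr (1.97), all of which are hair or pigment genes. It was also the highest for Lama3 (44.1 CPM), Axin2 (30.0), Apoa1 (28.7), Klk6 (21.3), S100a9 (5.71) and Ltf (0.118), and the lowest for Pnpla2 (126 CPM), Smad3 (69.8) and Ndn (34.7). Young 4 was the highest young library for Rplp1 (1199.5 CPM), a short transcript, and the lowest for Pmp22 (277 CPM). Young 3 was the lowest for Npas2 (0.780 CPM).

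The 24 genes named first had been picked by the same skin values, so the count that follows describes the selection. For 14 of the 24, the age difference in skin departed from the mean of the other 5 tissues in the model over all libraries. The skin difference exceeded that mean by 6.05 log2 units for Slc26a7, 1.78 for Acer2, 1.505 for Adgrg6, 1.35 for Inf2, 1.26 for Galnt18 and 1.25 for Pkp4. The departure was -1.14 for Ndn, -1.35 for Ddah2, -1.40 for Olfml2b, -1.42 for Islr, -1.61 for Mfap5, -1.74 for Efemp2, -1.85 for Emp3 and -2.45 for Anxa3. Against skeletal muscle alone, the skin difference departed by -2.40 for Ndufa1, -2.74 for Ndufa2, -2.63 for Cox6c, -2.44 for Cox7b, -2.41 for mt-Co2 and -3.03 for mt-Nd3. Over all genes the median departure from muscle was -1.43 for longest transcripts under 1000 bases, -0.50 for 1000 to 2000 bases and 0.0031 for 2000 to 4000 bases. Ndufa1, Ndufa2, mt-Co2 and mt-Nd3 are of the shortest class, Cox7b has 1001 bases and Cox6c has 3038 bases. The part of transcript length was not tested gene by gene.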

How the results depend on the processing

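The fit with all skin libraries called 0 genes, with 3064 at an unadjusted p under 0.05. The counts of calls were 2692 with limma-voom and quality weights, 1042 with DESeq2, 384 with a hair covariate, 9 with a muscle covariate and 3 with no filter on low counts. Without the growing-hair libraries edgeR called 1836, and 1262 with the length correction added, but 0 when old 3 was left out too. Leaving out a further doxycycline-treated library with some hair keratins gave 1340. DESeq2 shared 641 genes with the fit without growing-hair libraries, and limma-voom shared 1316 with it. Leaving out 1 library at a time gave 0 to 10 calls, and the 10 came without young 2. The other alternatives, among them males only, only the 7 untreated libraries, DESeq2's size factors, robust estimation, no sex covariate, a minimum of 1 CPM and the length correction alone, called 0 genes by edgeR. The male-only fit had 1215 genes at an unadjusted p under 0.05. No result changed sign among those called. Departures from muscle numbered 4135, and 3015 to 5224 with 1 library left out, and departures from the 5 tissues numbered 5066, and 3439 to 5980. No paired analysis was possible because the labels number no replicates that the groups share. Calls rest on 3 untreated old libraries, of which 1 held liver and spleen RNA, on a sheet of muscle of varying amount, and on young libraries of which only 1 was in hair growth. A count of 0 allows up to 0.135 CPM in untreated old libraries and 0.171 CPM in young ones, so lower levels were not detectable.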
